A study of Homo sapiens with 4 samples.

Results

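The 40 genes described here encode the machinery that folds proteins in the endoplasmic reticulum (ER), the sensors and transcription factors of the unfolded protein response, and targets of the transcription factor ATF4. They were chosen by name from these pathways, and all 40 are among the 60662 genes of the deposited count table. The tested cells were 2 MATR3 knockout (KO) clones, clones 1 and 5, with 1 library each, and the control was wild-type (WT) clone 4 with 2 libraries, called A and B here. All 4 libraries come from HAP1, human cells with close to a single set of chromosomes that descend from the leukaemia line KBM-7 (CML), bought as edited or control clones and grown in the same serum-containing medium, with no treatment named. Each library was made from 50 ng of total RNA as PCR-amplified cDNA and read on a MinION, the nanopore instrument for long reads. MATR3 encodes matrin 3, a nuclear protein that binds RNA and DNA, and the comparison asked how expression differs in cells edited at this gene. Each KO clone is a single clone, so an effect of the edit and a peculiarity of a clone cannot be told apart.

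Proteins that enter the ER are folded by chaperones and disulfide isomerases, and those that fail are sent back to the cytosol and degraded. When unfolded proteins build up, the sensors IRE1, PERK and ATF6 switch on transcription factors that raise the level of chaperones and of the degradation machinery. PERK also slows translation by phosphorylating eIF2, as do related kinases that sense amino acid shortage, haem shortage or double-stranded RNA, and this favours translation of ATF4, which in turn switches on amino acid synthesis, amino acid import and CHOP. ATF4 and XBP1 are controlled largely after transcription, by translation and by splicing, and counts per gene show neither.

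Libraries held 3121759 to 5303199 counts, and mitochondrially encoded genes took 2.68% and 2.13% of the counts in KO clones 1 and 5, against 1.95% and 2.17% in WT libraries A and B. GENCODE 44 names 2 overlapping gene models on the same strand MATR3, so reads could have been assigned to either. The row listed by an identifier, ENSG00000015479, had 187 and 204 counts in KO clones 1 and 5, against 171 and 304 in WT A and B, and the row with the symbol MATR3 had 27 and 37 counts in KO, against 41 and 43 in WT. Since a small edit can leave the RNA in place, the KO labels are not checked by these counts. Of 10 haematopoietic markers 6, PTPRC and CD34 among them, were at 0 in all 4 libraries. The fusion partner BCR had 10 and 8 counts in KO and 9 and 15 in WT, and the other partner, ABL1, had 2 and 1 in KO and 3 and 1 in WT. By CPM (counts per library of a common size, here by plain totals) the haematopoietic list summed to 41.0 and 34.8 in KO, against 19.1 and 23.8 in WT. Most of these counts were those of GATA2, 95 and 92 in KO and 45 and 86 in WT. RUNX1 had 18 and 34 counts in KO and 9 and 14 in WT. TAL1 had 15 and 14 in KO and 12 and 22 in WT, and KIT was counted in WT alone. The sum thus does not stand for the markers as a class, and its part in the results below was not tested. Of 6 fibroblast markers 4 were at 0 in all 4 libraries and PDGFRB had 1 count, in WT B. COL1A1 was counted in every library, with 20 and 11 counts in KO and 11 and 26 in WT. Nothing in the labels says that the WT libraries came from separate cultures, so the spread between them may be technical. The p-values rest on this spread and the spread between the 2 KO clones, fitted together. For each gene that spread was also drawn toward a trend over all genes tested, so part of it is borrowed from other genes. Column names of the 2 genotypes hold different date tags, for which reason genotype and date cannot be told apart, and the WT names differ in a tag (FACS for A, test for B). In bulk RNA, fewer cells with a transcript and less transcript per cell cannot be told apart.

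None of the ER folding, unfolded protein and ATF4 response genes passed the test between KO and WT. Of the 40 genes 35 had enough counts to be tested, and at an adjusted p under 0.05 in edgeR's quasi-likelihood test 0 were higher in KO and 0 were lower, where 1.58% of all 10505 genes tested were called higher and 0.609% lower. DESeq2 and limma-voom also called 0 of the 35. At an unadjusted p under 0.05, 3 of the 35 were higher in KO (10.7% of all genes) and 1 was lower (5.66% of all genes). The median log2 fold change of the 35 genes, KO over WT, was 0.08, and that of all genes tested was 0.00. By CPM, from here on counts over TMM-scaled library sizes, both KO libraries lay above both WT libraries in 12 of the 35 genes and below them in 4, while the same held in 25.0% and 22.8% of all genes tested. The fitted changes ran from -0.82 to 1.02 on the log2 scale, with a median standard error (SE) of 0.30.

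**Figure D1:**
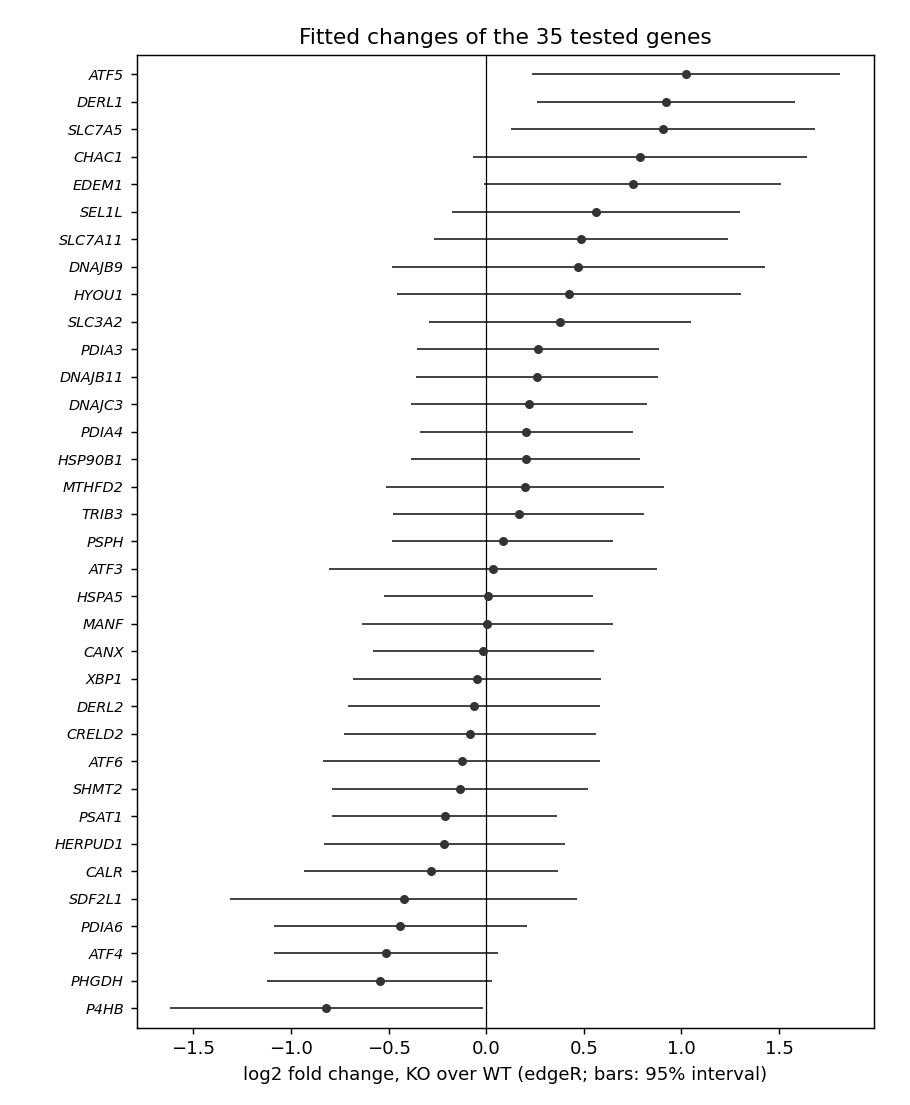
Fitted log2 fold change of each of the 35 tested genes, KO over WT (x axis, log2 scale), with its 95% interval as a bar, ordered by size. The points run from -0.82 for P4HB to 1.02 for ATF5, and most of the intervals cross 0.

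Of the 3 sensors, ATF6 alone had enough counts to be tested. ATF6, the sensor that is cut in the Golgi to release a transcription factor, had 13.2 and 10.9 CPM in KO clones 1 and 5, against 15.5 and 11.0 CPM in WT A and B. Its log2 fold change was -0.12 with an SE of 0.33 (edgeR adjusted p = 0.893), and the groups overlapped. ERN1, which encodes the kinase and RNase IRE1, had 5 and 5 counts in KO and 6 and 10 in WT. EIF2AK3, which encodes the kinase PERK, had 8 and 1 counts in KO and 5 and 5 in WT. Ratios at such depths are imprecise, KO over WT 0.766 for ERN1 (exact 95% counting interval 0.311 to 1.79) and 1.10 for EIF2AK3 (0.396 to 3.02). The intervals hold the counting error alone and leave out the spread between libraries. Reads copied by PCR do not stand for separate molecules, so even the counting error may be larger.

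Among the transcription factors, ATF5 had the highest fitted change of all 35 genes and ATF4 lay below WT in both clones, and neither passed the test. ATF4 (chr22:39519695-39522683, hg38), the effector of the integrated stress response, had 181 and 287 CPM in KO clones 1 and 5, against 337 and 330 CPM in WT A and B. Both KO libraries were below both WT libraries, which hardly differed from each other, and clone 1 was the lowest. The log2 fold change was -0.51 (SE 0.27, 95% interval -1.09 to 0.06, edgeR adjusted p = 0.368). ATF5 (chr19:49928702-49933935, hg38), a related factor of the same response, went the other way, with 20.3 and 10.9 CPM in KO, against 7.73 and 7.46 CPM in WT. Its log2 fold change was 1.02 (SE 0.37, 95% interval 0.23 to 1.81, edgeR adjusted p = 0.177), and here too clone 1 was the farther from WT. Of the exonic bases of ATF5, 19.5% overlap genes on the opposite strand, IL4I1 and NUP62, and no source used here says whether counting used strand.

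XBP1, whose mRNA is spliced by IRE1, did not separate the groups. XBP1 had 42.4 and 56.1 CPM in KO, against 56.8 and 45.5 CPM in WT (log2 fold change -0.05, SE 0.30, edgeR adjusted p = 0.960). ATF3, a factor induced in many kinds of stress, had 4.91 and 6.21 CPM in KO, against 5.06 and 5.78 CPM in WT (log2 fold change 0.03, SE 0.39, edgeR adjusted p = 0.981). DDIT3, which encodes CHOP, the factor tied to cell death in prolonged ER stress, was close to absent from the counts in both genotypes. It had 0 and 1 counts in KO clones 1 and 5 and 0 in both WT libraries, where a count of 0 allows up to 0.892 CPM in WT A and 0.559 CPM in WT B. In the GENCODE 44 annotation 31.6% of its exonic bases overlap MARS1 and MBD6 on the opposite strand and 8.0% another gene on its own strand. Counting used another annotation version, as its older gene symbols show. If that held the same overlaps, part of the reads of DDIT3 could have been assigned elsewhere, which was not tested.

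The ER chaperones and cochaperones are the genes best known as targets of ATF6 and XBP1, which bind ER stress elements in their promoters. RefSeq promoter windows on hg38, from 250 bases before to 50 after a start site, were found for 35 of the 40 genes, not the same 35 as those tested. The element ERSE, spelled CCAAT and CCACG with 9 bases of any kind between and searched on both strands, was matched in 7 of these 35 genes (XBP1, HSPA5, HSP90B1, CALR, CANX, CRELD2 and PDIA6), and in 0.0916% of the 27305 genes with a window. The element ERSE-II, spelled ATTGG and CCACG with 1 base between, was matched in 3 (HYOU1, SDF2L1 and HERPUD1), against 0.0696% of all genes. The shorter XBP1 element UPRE, TGACGTGG, was matched in HYOU1 alone, where it overlaps an ERSE-II, and in 0.927% of all genes. The ATF4 element CARE, searched in the spelling TGATGNAAT alone, was matched in 0 of the 35 windows and in 1.22% of all genes. This says only that these letters are not in these windows, and other spellings were not searched. A match is a description of the letters and not a bound site. The genes were chosen by name from pathways known for these elements, so their shares are no independent evidence on the members. The stretches below, written 5′ to 3′ on the strand of the gene with the element in capitals, are shown because they group genes by a shared element whose values can then be set side by side; an element on the opposite strand reads as its reverse complement.
HSPA5, ERSE, chr9:125241371-125241429, minus strand: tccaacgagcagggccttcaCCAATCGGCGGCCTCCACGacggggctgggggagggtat
HSP90B1, ERSE, chr12:103930301-103930359, plus strand: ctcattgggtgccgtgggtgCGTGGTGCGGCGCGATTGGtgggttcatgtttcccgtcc
CRELD2, ERSE, chr22:49918534-49918592, plus strand: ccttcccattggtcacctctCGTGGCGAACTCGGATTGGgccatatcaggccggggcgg
XBP1, ERSE, chr22:28800583-28800641, minus strand: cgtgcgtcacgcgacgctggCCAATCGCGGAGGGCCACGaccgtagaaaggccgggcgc
HERPUD1, ERSE-II, chr16:56932005-56932055, plus strand: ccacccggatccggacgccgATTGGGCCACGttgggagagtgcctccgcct
SDF2L1, ERSE-II, chr22:21642094-21642144, plus strand: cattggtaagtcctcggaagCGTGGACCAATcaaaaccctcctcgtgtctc

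None of the ER chaperones with an ERSE passed the test. HSPA5, which encodes BiP, the main Hsp70 chaperone of the ER, had 219 and 186 CPM in KO clones 1 and 5, against 205 and 197 CPM in WT A and B. Its log2 fold change was 0.01 (SE 0.25, edgeR adjusted p = 0.992), with a 95% interval of -0.53 to 0.54. HSP90B1, which encodes the ER Hsp90 chaperone GRP94, had 108 and 88.5 CPM in KO and 82.4 and 88.0 CPM in WT (log2 fold change 0.20, SE 0.27, edgeR adjusted p = 0.756). The lectin chaperones, which hold glycoproteins during folding, overlapped between the groups. CANX, the membrane-bound one, had 109 and 102 CPM in KO and 106 and 107 CPM in WT (log2 fold change -0.02, SE 0.26, edgeR adjusted p = 0.988). CALR, the soluble one, had 82.6 and 51.7 CPM in KO and 87.8 and 75.5 CPM in WT (log2 fold change -0.28, SE 0.30, edgeR adjusted p = 0.688), with clone 5 the lowest of the 4 libraries. CRELD2, a secreted protein induced by ER stress, had 41.8 and 62.6 CPM in KO and 58.6 and 52.4 CPM in WT, with clone 1 below and clone 5 above both WT libraries (log2 fold change -0.08, SE 0.30, edgeR adjusted p = 0.924).

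None of the 3 genes with an ERSE-II in the windows passed the test. SDF2L1 (chr22:21642302-21644299, hg38), a component of ER chaperone complexes, had 62.3 CPM in KO clone 1 and 194 CPM in KO clone 5, against 200 and 144 CPM in WT A and B. Clone 1 alone stood apart, and clone 5 lay between the WT libraries, so the fit over both clones gave -0.42 with a wide SE of 0.41 (edgeR adjusted p = 0.652). HYOU1, a large ER chaperone that acts as nucleotide exchange factor of BiP, had 9.21 and 5.17 CPM in KO and 4.46 and 5.97 CPM in WT (log2 fold change 0.42, SE 0.41, edgeR adjusted p = 0.649). There clone 1 was the highest library. HERPUD1, an ER membrane protein of the degradation complex, had 35.0 and 42.2 CPM in KO and 45.5 and 44.2 CPM in WT, both KO libraries below both WT libraries (log2 fold change -0.21, SE 0.29, edgeR adjusted p = 0.754).

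The J-domain cochaperones of BiP did not pass either. DNAJB11, which brings unfolded substrates to BiP, had 22.7 and 25.1 CPM in KO and 20.2 and 19.8 CPM in WT (log2 fold change 0.26, SE 0.29, edgeR adjusted p = 0.700). DNAJC3, also known as P58IPK, an inhibitor of PERK, had 48.2 and 51.2 CPM in KO and 41.1 and 44.2 CPM in WT (log2 fold change 0.22, SE 0.28, edgeR adjusted p = 0.739). In both genes the KO libraries were above both WT libraries, and the fitted change was smaller than its SE. DNAJB9, which holds IRE1 inactive together with BiP, varied within both genotypes, with 6.45 and 16.6 CPM in KO and 11.3 and 5.97 CPM in WT (log2 fold change 0.47, SE 0.45, edgeR adjusted p = 0.637). MANF, an ER-resident protein that binds BiP, had 41.1 and 60.3 CPM in KO and 53.5 and 47.7 CPM in WT (log2 fold change 0.01, SE 0.30, edgeR adjusted p = 0.996). Over the 11 chaperones and cochaperones the median log2 fold change was 0.01, 7 were above 0 and 4 below, and their summed level was 796 ± 65.0 CPM in KO and 829 ± 57.8 CPM in WT (SD, n = 2 each).

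**Figure D2:**
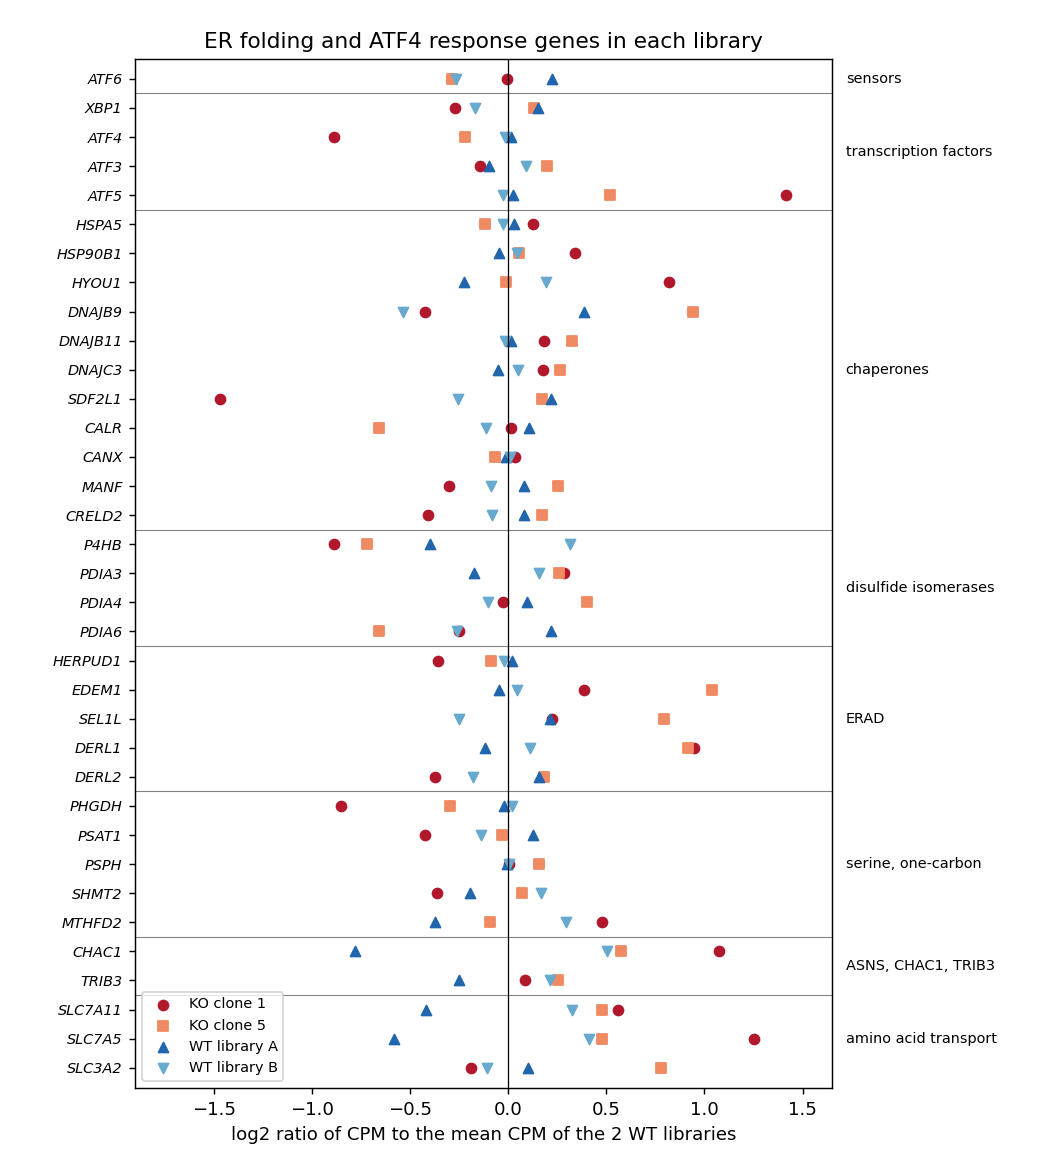
Level of each of the 35 tested genes in each of the 4 libraries, as the log2 ratio of its CPM to the mean CPM of the 2 WT libraries (x axis), grouped by role. Circles and squares are KO clones 1 and 5, and triangles are WT libraries A and B; in SDF2L1, ATF4 and PHGDH clone 1 stands at the left, and in DERL1 both clones stand at the right.

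The disulfide isomerases, which form and rearrange disulfide bonds, held the lowest fitted change of the 35 genes. P4HB (chr17:81843159-81860856, hg38), the founding protein disulfide isomerase and a subunit of prolyl 4-hydroxylase, had 5.53 and 6.21 CPM in KO clones 1 and 5, against 7.73 and 12.7 CPM in WT A and B. Both KO libraries were below both WT libraries, and the WT libraries differed from each other by more than the clones did. The log2 fold change was -0.82 (SE 0.37, 95% interval -1.62 to -0.02, edgeR adjusted p = 0.294), on 18 and 24 counts in KO and 26 and 68 in WT. PDIA6, which also tempers IRE1, had 63.5 and 47.9 CPM in KO and 88.1 and 63.2 CPM in WT (log2 fold change -0.44, SE 0.30, edgeR adjusted p = 0.499). Of its exonic bases 25.2% overlap ATP6V1C2 on the opposite strand. PDIA4 had 235 and 317 CPM in KO and 256 and 223 CPM in WT (log2 fold change 0.21, SE 0.25, edgeR adjusted p = 0.730). PDIA3, which works with the lectin chaperones on glycoproteins, had 46.7 and 45.8 CPM in KO and 33.9 and 42.7 CPM in WT (log2 fold change 0.27, SE 0.29, edgeR adjusted p = 0.690). Its processed pseudogene PDIA3P1, with which reads could be shared, had 23 and 12 counts in KO and 8 and 117 in WT. Summed with it, PDIA3 had 53.7 and 48.9 CPM in KO and 36.3 and 64.5 CPM in WT, so the order of the groups rests on how reads of the pair were assigned.

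Of the genes of ER-associated degradation, DERL1 had the lowest p of the 35 genes tested and still did not pass. DERL1 (chr8:123013170-123042302, hg38), a channel-forming membrane protein of the retrotranslocation complex, had 19.3 and 18.9 CPM in KO clones 1 and 5, against 9.22 and 10.8 CPM in WT A and B. The KO clones were nearly equal, the groups were well apart, and the log2 fold change was 0.92 (SE 0.31, 95% interval 0.26 to 1.58, edgeR adjusted p = 0.149). The 40 tested genes nearest to DERL1 on chromosome 8 had a median log2 fold change of 0.07. Its paralog DERL2 showed no such separation, with 51.3 and 75.3 CPM in KO and 74.1 and 58.5 CPM in WT (log2 fold change -0.06, SE 0.30, edgeR adjusted p = 0.949). The difference between the paralogs was not tested.

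EDEM1 and SEL1L were above WT in both clones. EDEM1, a lectin that delivers misfolded glycoproteins for degradation, had 9.21 and 14.5 CPM in KO and 6.84 and 7.27 CPM in WT (log2 fold change 0.75, SE 0.35, 95% interval -0.01 to 1.51, edgeR adjusted p = 0.313). SEL1L, the adaptor of the ubiquitin ligase HRD1, had 11.7 and 17.3 CPM in KO and 11.6 and 8.39 CPM in WT (log2 fold change 0.56, SE 0.34, edgeR adjusted p = 0.445). For SEL1L clone 1 barely exceeded WT A, and clone 5 was the higher clone in both genes. SYVN1, which encodes HRD1 itself, had 5 and 2 counts in KO and 2 and 9 in WT and was not tested. Of the 6 degradation genes 5 were tested, with a median log2 fold change of 0.56, 3 above 0 and 2 below.

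None of the 5 serine and one-carbon genes, which ATF4 induces, passed the test, with 2 above 0 and 3 below. PHGDH (chr1:119648411-119744218, hg38), the first enzyme of serine synthesis, had 126 and 186 CPM in KO clones 1 and 5, against 224 and 231 CPM in WT A and B. As for ATF4, the WT libraries were close to each other, both clones were below them and clone 1 was the lower clone. The log2 fold change was -0.54 (SE 0.27, 95% interval -1.12 to 0.03, edgeR adjusted p = 0.336). PSAT1, the next enzyme of the pathway, had 123 and 162 CPM in KO and 181 and 150 CPM in WT (log2 fold change -0.21, SE 0.27, edgeR adjusted p = 0.733). PSPH, the last, had 109 and 121 CPM in KO and 108 and 109 CPM in WT (log2 fold change 0.08, SE 0.26, edgeR adjusted p = 0.912). The mitochondrial folate enzymes that use serine overlapped between the groups. SHMT2 had 20.9 and 28.2 CPM in KO and 23.5 and 30.2 CPM in WT (log2 fold change -0.13, SE 0.31, edgeR adjusted p = 0.872). MTHFD2 had 27.3 and 18.4 CPM in KO and 15.2 and 24.1 CPM in WT (log2 fold change 0.20, SE 0.33, edgeR adjusted p = 0.812). The 5 genes summed to 407 and 515 CPM in KO, against 552 and 545 CPM in WT. The order of clone 5 rests on PHGDH, since without it the other 4 genes summed to 281 and 329 CPM in KO, against 328 and 314 CPM in WT.

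None of the 3 amino acid transporters passed the test, and both KO libraries were above both WT libraries in 2 of them. SLC7A5 (chr16:87830023-87869507, hg38), the light chain of the LAT1 transporter of large neutral amino acids, had 111 and 65.2 CPM in KO, against 31.2 and 62.3 CPM in WT. KO clone 5 was close to WT B, and the WT libraries differed about 2-fold from each other. The log2 fold change was 0.90 (SE 0.36, 95% interval 0.12 to 1.68, edgeR adjusted p = 0.233). SLC3A2, the heavy chain that carries SLC7A5 and SLC7A11 to the membrane, had 118 and 230 CPM in KO and 144 and 125 CPM in WT, with clone 1 below and clone 5 above both WT libraries (log2 fold change 0.38, SE 0.31, edgeR adjusted p = 0.583). SLC7A11, the cystine importer, had 12.3 and 11.6 CPM in KO and 6.25 and 10.4 CPM in WT (log2 fold change 0.49, SE 0.35, edgeR adjusted p = 0.526). The 3 transporters summed to 242 and 307 CPM in KO, against 181 and 197 CPM in WT. The gene farthest above the WT mean differed between the clones. It was SLC7A5 in clone 1, where SLC3A2 was below both WT libraries, and SLC3A2 in clone 5.

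Of the remaining ATF4 targets, CHAC1 and TRIB3 did not pass and ASNS was barely counted. CHAC1, which degrades glutathione, had 17.2 and 12.2 CPM in KO, against 4.76 and 11.6 CPM in WT (log2 fold change 0.79, SE 0.40, 95% interval -0.07 to 1.64, edgeR adjusted p = 0.351). TRIB3, a pseudokinase that feeds back on ATF4, had 31.6 and 35.4 CPM in KO and 25.0 and 34.5 CPM in WT (log2 fold change 0.17, SE 0.30, edgeR adjusted p = 0.827). CHAC1, TRIB3, SLC7A5, SLC7A11, MTHFD2 and SHMT2 were each lower in WT A than in WT B, so their fitted changes move with the WT library used. The ATF4 targets did not share this order. PSAT1 (181 and 150 CPM in WT A and B) and SLC3A2 (144 and 125 CPM) were higher in WT A. PHGDH, PSPH and ATF4 itself were at a like level in both. Without WT A the log2 fold change was 0.34 for CHAC1, 0.51 for SLC7A5, 0.20 for SLC7A11, -0.04 for TRIB3 and -0.07 for MTHFD2. ASNS, asparagine synthetase, had 1 and 1 counts in KO and 3 and 3 in WT, KO over WT 0.408 (exact 95% counting interval 0.0403 to 2.28). In GENCODE 44, 49.3% of its exonic bases are shared with another gene on the same strand. If the annotation used for counting held that gene too, reads of ASNS could have been assigned elsewhere, which was not tested.

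**Figure D3:**
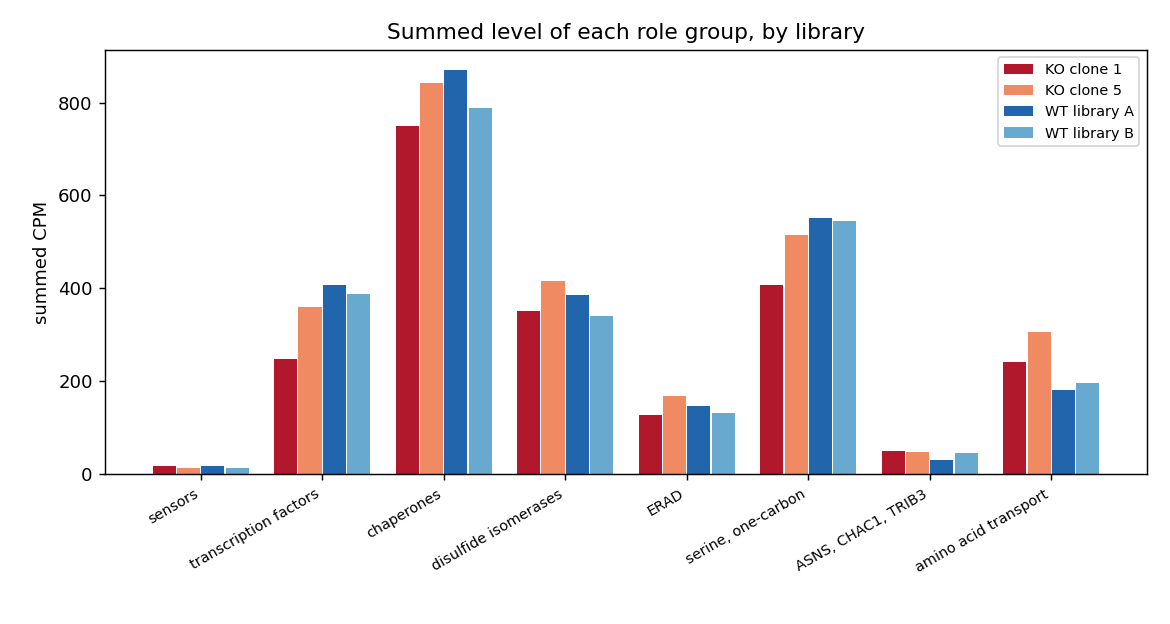
Summed CPM of the genes of each role (y axis, from 0) in KO clones 1 and 5 and WT libraries A and B (bars), with 1 library per bar. The serine and one-carbon genes stand at 407 and 515 CPM in KO, against 552 and 545 CPM in WT, where PHGDH alone puts clone 5 below WT, and the amino acid transporters at 242 and 307 CPM in KO, against 181 and 197 CPM in WT.

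Each clone has 1 library, so the clones can only be described apart. When KO clone 1 alone was set against both WT libraries, with its spread assumed to be like that of the others, ATF5 was called higher and ATF4, SDF2L1 and PHGDH lower, 1 and 3 of the 35 genes, where 5.99% and 3.21% of all genes were called. In that fit SDF2L1 had a log2 fold change of -1.47 (edgeR adjusted p = 0.00252), ATF4 of -0.89 (edgeR adjusted p = 0.0196), PHGDH of -0.86 (edgeR adjusted p = 0.0303) and ATF5 of 1.41 (edgeR adjusted p = 0.0176). With KO clone 5 alone 0 genes were called in either direction, where 1.22% of all genes were called higher and 0.481% lower. The corresponding values of clone 5 were 0.17 for SDF2L1, -0.22 for ATF4, -0.29 for PHGDH and 0.52 for ATF5. Whether the clones differ was not tested, and both fits share the WT libraries.

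Between the clones 2 of the 35 genes, SDF2L1 and DNAJB9, differed more than 2-fold, 5.71%, against 10.4% of all genes tested with counts in both clones. The log2 ratio of clone 1 to clone 5 was -1.64 for SDF2L1 and -1.36 for DNAJB9. The highest ratios were those of ATF5, 0.90, and HYOU1, 0.83. The median size of the log2 ratio over the 35 genes was 0.43 between the clones and 0.23 between the WT libraries, and over all genes tested it was 0.40 and 0.29.

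**Figure D4:**
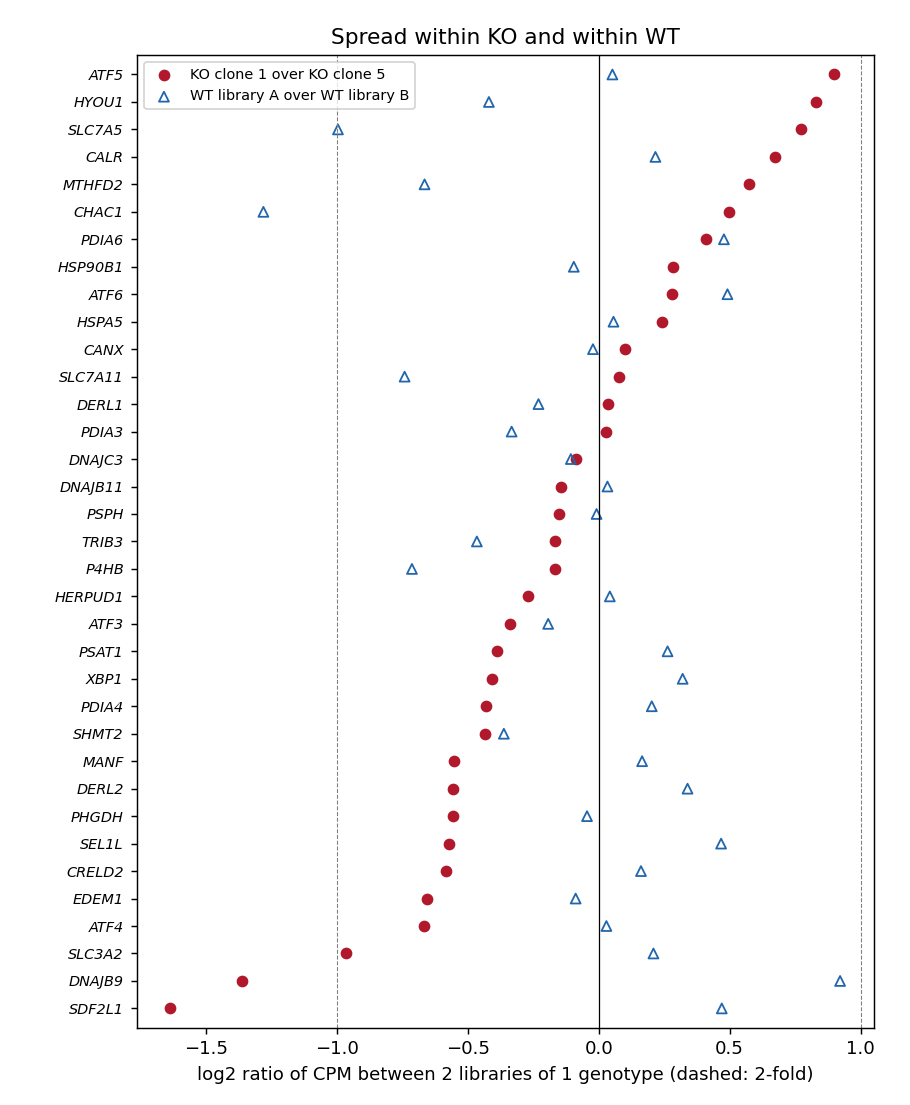
Log2 ratio of CPM between libraries of the same genotype for each of the 35 genes, ordered by the ratio of KO clone 1 to KO clone 5 (filled circles), with the ratio of WT library A to WT library B beside it (open triangles). SDF2L1 at -1.64 and DNAJB9 at -1.36 lie past the dashed 2-fold line between the clones.

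In 6 other lists of genes, 5 genes were called higher in KO and 0 lower, each list to be read against the 1.58% and 0.609% of all genes called higher and lower. Of 27 tested among 30 further ER chaperones and folding enzymes, SEC63 alone rose in KO and 0 fell. SEC63, a translocon cochaperone of BiP, had 83.5 and 55.1 CPM in KO, against 14.3 and 22.7 CPM in WT (log2 fold change 1.88, SE 0.34, edgeR adjusted p = 0.0132). Of 27 tested among 33 further ATF4 and CHOP targets, MTHFD1L and NUPR1 rose and 0 fell. MTHFD1L, a mitochondrial folate enzyme, had 242 and 169 CPM in KO, against 55.9 and 72.5 CPM in WT (log2 fold change 1.67, SE 0.29, edgeR adjusted p = 0.0116). SEC63 and MTHFD1L lie on chromosome 6, and the 40 tested genes nearest to each had median log2 fold changes of 0.74 and 0.92, with 34 and 37 of them above 0. The part of this region in their change was not tested, and none of the 40 genes described above lies on chromosome 6.

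NUPR1, a stress-induced chromatin protein, was the other ATF4 target that rose, with 11.7 and 10.9 CPM in KO, against 1.49 and 4.10 CPM in WT (log2 fold change 1.90, SE 0.43, edgeR adjusted p = 0.0362). NUPR1 had 38 and 42 counts in KO and only 5 and 22 in WT A and B, so the size of its change moves with the WT library used. Its 40 nearest tested genes had a median of -0.12. Of 18 tested among 20 cytosolic aminoacyl-tRNA synthetases, a group that includes ATF4 targets, NARS rose and 0 fell. NARS, asparaginyl-tRNA synthetase, had 1175 and 873 CPM in KO, against 441 and 567 CPM in WT (log2 fold change 1.02, SE 0.24, edgeR adjusted p = 0.0431). Its 40 nearest tested genes had a median log2 fold change of 0.24, with 29 above 0. RARS, arginyl-tRNA synthetase, named here after its values were seen, had 752 and 349 CPM in KO, against 193 and 264 CPM in WT, and did not pass (log2 fold change 1.27, SE 0.33, edgeR adjusted p = 0.0638). The median of the 18 synthetases was -0.16.

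In the lists of ER entry and degradation and of eIF2 control 0 genes rose or fell. Of 36 tested among 38 further genes of ER entry, quality control and degradation, SPCS3, a signal peptidase subunit, had the lowest p (log2 fold change 1.41, SE 0.37, edgeR adjusted p = 0.0648). VCP, the ATPase that pulls substrates out of the membrane, followed with 0.64 (SE 0.26), and SSR1, a translocon-associated protein, with 0.78 (SE 0.32). Of 19 kinases, eIF2 subunits and phosphatases, all tested, EIF2AK2, the double-stranded RNA sensor PKR, had the lowest p, with 95.8 and 81.0 CPM in KO, against 53.5 and 57.8 CPM in WT (log2 fold change 0.66, SE 0.28, edgeR adjusted p = 0.253). EIF2B1 had -0.56 (SE 0.28) and EIF2S3 0.44 (SE 0.24). At an unadjusted p under 0.05, 4 of the 36 genes were higher and 1 lower, and 1 of the 19 was higher and 0 lower, where 10.7% of all genes were higher and 5.66% lower.

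Cytosolic chaperones, the most similar group outside the ER, held 1 call. Of 25 tested among 28, HSPA4, an Hsp110-family chaperone, rose in KO, with 484 and 235 CPM, against 129 and 156 CPM in WT (log2 fold change 1.33, SE 0.32, edgeR adjusted p = 0.0449), and 0 fell. Without KO clone 1 its log2 fold change was 0.72 (edgeR adjusted p = 0.145). The median of the cytosolic list was 0.00, against 0.08 for the ER folding and ATF4 genes, and the difference between the lists was not tested. Without WT library A, edgeR adjusted p-values of all 5 genes called in these further lists were above 0.05, from 0.0738 for SEC63 to 0.517 for NARS. Without WT library B those of NARS (0.165) and HSPA4 (0.0910) were, and without KO clone 1 those of NUPR1 (0.0507), NARS (0.0565) and HSPA4.

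The authors' deposited table of comparisons lists 30 of the 40 genes, of which 0 have an adjusted p under 0.05. In the authors' deposited table the lowest adjusted p among them is 0.292, for SLC7A5, and 29 of the 30 fold changes have the sign of the edgeR fit. That table holds 6479 genes.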

How the data were processed

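Gene counts were read from 4 HAP1 libraries of PCR-amplified cDNA, per the labels' protocols. The authors deposited whole-number counts per gene, not normalised. The submitters' processing notes name hg38, minimap2, SAMtools, Subread, DESeq and DESeq2 1.22.2; settings and strand use: not given in the sources used here. The authors' deposited normalised signal (counts over 1 size factor per library) was not used. The authors' deposited table gives log2 fold changes, p-values and a Wald score, whose sign was not used.

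KO columns carry clone numbers and WT columns none; 0 count columns were left unused. The members and lists were chosen with earlier results of these data known. The model, KO over WT with 2 libraries each and no covariate, used edgeR 4.0.16 under R 4.3.3, with filterByExpr (minimum count 10, total 15), TMM scaling and a robust two-sided quasi-likelihood F test, Benjamini-Hochberg adjusted over the 10505 genes tested, threshold 0.05. SEs are fold changes (log2) divided by the root of F, and intervals are 95%. CPM are counts over TMM-scaled library sizes. The common biological coefficient of variation was 0.210. The test was tested on simulated data. Alternatives were other scalings and filters, DESeq2 1.42.0, limma-voom (limma 3.58.1) and leaving out each library. Named genes were all 40 members, MATR3, and from each other list the genes called or the 3 with the lowest p. Positions and overlaps came from GENCODE 44, where 9614 of the tested genes could be placed, and neighbours were the 20 tested genes on each side. The annotation version used for counting was not given in the sources used here. Its gene symbols, such as NARS, are older than those of GENCODE 44, so overlaps may differ. Transcripts of the 40 genes were aligned to 261 alternate contigs of hg38, and 0 had a copy there (80% aligned, 98% identity). Promoters came from RefSeq (GRCh38.p14). Genes near 10 counts are measured with low precision.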

Additional observations from a re-analysis of the deposited data

Results flagged for a closer look

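In 7 of the 35 tested genes KO clone 1 lay on one side of both WT libraries and KO clone 5 on the other, 20%, as did 14.7% of all genes tested. The difference between the clones was not tested, since each has 1 library. The log2 ratio of clone 1 to clone 5 was -0.97 for SLC3A2, -0.58 for CRELD2, -0.55 for DERL2, -0.55 for MANF and -0.34 for ATF3, with clone 1 the lower clone. It was 0.24 for HSPA5 and 0.10 for CANX, with clone 1 the higher clone.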

How the results depend on the processing

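No paired analysis was possible because the groups share only the number 1, a clone number in KO and a replicate number in WT, and the WT columns carry no number. Over all genes the calls higher and lower were 20 and 11 without scaling factors, 385 and 183 without a count filter, 71 and 12 at a mean of at least 50 counts, where fewer genes were tested, and by tool 33 lower in DESeq2 and 41 lower in limma-voom; leaving out 1 library gave 91 to 674 higher and 42 to 361 lower. Among the 40 genes no alternative called any except leaving out KO clone 5, so that leaving out 1 library gave 0 to 1 higher and 0 to 3 lower. In the other lists, with 5 higher and 0 lower, the count higher was 0 without scaling, 9 without a filter, 2 at a mean of at least 50 counts and 2 in limma-voom, and leaving out 1 library gave 0 to 16 higher and 0 to 8 lower. No scaling ended the calls of SEC63, MTHFD1L, NUPR1, NARS and HSPA4, limma-voom those of NUPR1, NARS and HSPA4, a mean of at least 50 counts those of NARS and HSPA4, upper-quartile scaling that of NARS and DESeq2 that of NUPR1, while fold changes moved little (without scaling 1.91 for SEC63 and 1.05 for NARS). The cause of these changes was not tested.

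Some uncalled changes turned sign. Under other scalings, filters or tools these were changes near 0. Without 1 library larger ones turned too, such as DNAJB9 at 0.47 and SDF2L1 at -0.42 in the main fit. HSPA5 had -0.0092 with RLE scaling, -0.032 with upper-quartile scaling, -0.010 without a filter and -0.0018 in DESeq2. MANF had -0.013, -0.031, -0.012 and -0.0042 under the same settings and -0.015 in limma-voom. ATF3 had -0.0045 with upper-quartile scaling, and CANX 0.010 without scaling and 0.013 at a mean of at least 50 counts. Leaving out 1 library gave log2 fold changes of -0.39 to 0.13 for ATF6, -0.27 to 0.14 for XBP1, -0.16 to 0.19 for ATF3, -0.12 to 0.12 for HSPA5, -0.030 to 0.79 for HYOU1, -0.39 to 0.98 for DNAJB9, -1.47 to 0.17 for SDF2L1 and -0.66 to 0.014 for CALR. It gave -0.065 to 0.030 for CANX, -0.30 to 0.25 for MANF, -0.41 to 0.18 for CRELD2, -0.029 to 0.40 for PDIA4, -0.37 to 0.19 for DERL2, -0.38 to 0.063 for SHMT2, -0.11 to 0.56 for MTHFD2, -0.035 to 0.40 for TRIB3 and -0.19 to 0.78 for SLC3A2. With 2 libraries a group, an exact permutation test cannot go below 0.333.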
